A study of Homo sapiens with 6 samples.

Results

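The ERBB receptors and their ligands were read in HSC-3 cells, an established line of tongue squamous carcinoma. The 10 genes were NRG1, the receptors EGFR, ERBB2 and ERBB3, and the ligands AREG, EREG, HBEGF, TGFA, BTC and EPGN. NRG1 was chosen on its fall between the groups in these same arrays, and the other 9 genes as its family. Every probe set annotated to a member gene alone was taken, whatever its level, and those annotated to several genes were left out. This gave 34 probe sets of 8 genes, out of 19775 genes with a named probe set in the series. No probe set is annotated here to AREG alone or to EPGN alone, so these 2 genes have no value. A probe set is a group of short probes on an Affymetrix array that reads 1 stretch of RNA.

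The study asked what trypsin-2, a digestive serine protease encoded by PRSS2 and made by some tumours, does to gene expression in these cells. Of 6 arrays, 3 are labelled TAT-2 (HSC-3 made to overexpress trypsin-2) and 3 are labelled vector (HSC-3 with the control vector, described as free of trypsin-2). Both kinds of cell grew for 48 h in the same serum-containing medium and carry a replicate number from 1 to 3. The labels do not say whether the replicates were separate cultures or the overexpressing cells a single clone, so the spread between arrays may be technical.

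ERBB receptors are tyrosine kinases at the cell surface that signal as pairs. EGFR binds the EGF-like ligands (TGFA, AREG, EPGN, and also EREG, HBEGF and BTC, which can bind ERBB4 too), neuregulins such as NRG1 bind ERBB3 and ERBB4, ERBB2 has no known ligand of its own, and ERBB3, whose kinase is weak, signals mainly through ERBB2. The ligands are made as membrane-bound precursors that proteases release, and squamous carcinomas are known for high EGFR.

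EPGN, EREG, AREG and BTC lie next to each other on chromosome 4. The bases just before the start sites of these 4 ligand genes are shown because the EREG probe sets had the largest differences between the groups after NRG1, though neither was called, and because the genes on either side of this cluster are described further on. They are from RefSeq, build GRCh38.p14, written 5′ to 3′ on each gene's own strand, and end at the base before the start site. The EREG stretch is 250 bases (chr4:74364895-74365144, plus strand), and the others are 100 bases: AREG at chr4:74445036-74445135, plus strand, EPGN at chr4:74308370-74308469, plus strand, and BTC at chr4:74794524-74794623, minus strand.
EREG: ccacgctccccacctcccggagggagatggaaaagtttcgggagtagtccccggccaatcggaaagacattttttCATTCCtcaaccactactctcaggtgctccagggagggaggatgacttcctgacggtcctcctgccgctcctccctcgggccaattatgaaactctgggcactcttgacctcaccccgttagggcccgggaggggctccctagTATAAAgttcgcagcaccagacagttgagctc
AREG: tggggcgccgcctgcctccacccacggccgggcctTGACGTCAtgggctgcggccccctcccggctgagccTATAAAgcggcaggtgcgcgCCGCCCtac
EPGN: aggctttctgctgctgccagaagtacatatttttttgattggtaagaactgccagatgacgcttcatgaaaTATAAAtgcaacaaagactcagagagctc
BTC: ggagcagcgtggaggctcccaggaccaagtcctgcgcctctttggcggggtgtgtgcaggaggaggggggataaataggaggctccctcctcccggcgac

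Capitals mark the letters of 5 motifs, searched on both strands: TATAAA (the TATA box), TGACTCA (AP-1), TGACGTCA (the cAMP response element), GGAATG (TEAD factors) and GGGCGG (the GC box). EREG, AREG and EPGN each hold TATAAA, which begins 32, 29 and 29 bases before the start, and 10.7% of 35116 promoter windows of 250 bases hold it. BTC holds none of the 5 in the 100 bases shown. EREG holds the TEAD letters 175 bases before its start (11.9% of windows do), and AREG holds TGACGTCA at 65 bases (1.65% of windows). AREG also holds the GC box 9 bases before its start, as do 42.6% of windows. A match of letters is a description and not a binding site.

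Values are MAS5 signals on a linear scale. Differences between the groups, TAT-2 minus vector, are on the scale of log2(signal + 16), which understates changes of dim probe sets. A probe set was tested when its average over all arrays was at least the median over the array without its control probes, a signal of 15.2. Of the 34 member probe sets 25 passed, from 7 genes, and the 9 others are given by their signals. Since members that are bright pass this filter more easily, the 25 are not all members. Calls are from limma fitted over all tested probe sets, at an adjusted p of 0.05, with group as the only term or with the replicate number as a block. An SE beside a group difference is from the fit with group alone, also where the p is from the block.

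Of 6 NRG1 probe sets the brightest was lower on the arrays labelled TAT-2, and in the other 5 the groups overlapped. The probe set 206343_s_at gave 491, 487 and 565 on replicates 1, 2 and 3 labelled TAT-2 and 1027, 1221 and 1255 on those labelled vector. The groups stood well apart, with the highest TAT-2 array below the lowest vector array. The TAT-2 mean was 514 ± 43.8 and the vector mean 1168 ± 123 (SD, n = 3 each). The log2 difference was -1.16 ± 0.11 (SE), or 2.23-fold. The difference was -1.04, -1.30 and -1.13 in replicate numbers 1, 2 and 3. In bulk RNA, fewer cells with the RNA and less of it per cell cannot be told apart. These are the values that brought NRG1 into view, so they are a description and no test is drawn from them.

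The probe set 206237_s_at gave 192, 143 and 157 on the TAT-2 arrays and 193, 142 and 151 on the vector arrays. Same-numbered arrays lay nearly on top of each other, at a log2 difference of 0.02 (95% interval -0.34 to 0.38, or -0.18 to 0.22 with the block). The probe set 208241_at gave 175, 269 and 141 against 206, 204 and 202. The vector arrays were close to each other, while the TAT-2 arrays lay on both sides of them (log2 -0.11, 95% interval -0.57 to 0.36).

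The probe set 208230_s_at gave 158, 111 and 80.7 against 203, 89.4 and 71.8. Here replicate 1 was the highest array of both groups, and the difference was 0.02 (95% interval -0.76 to 0.81, or -0.26 to 0.31 with the block). The probe set 208231_at gave 61.6, 41.1 and 48.0 against 70.2, 34.1 and 48.7, again highest on replicate 1 in both groups, at a difference of 0.01 (95% interval -0.50 to 0.52). The dimmest NRG1 probe set, 208232_x_at, gave 8.98, 7.26 and 15.1 against 24.3, 12.7 and 6.31. It lay below the filter and its arrays overlapped.

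**Figure D1:**
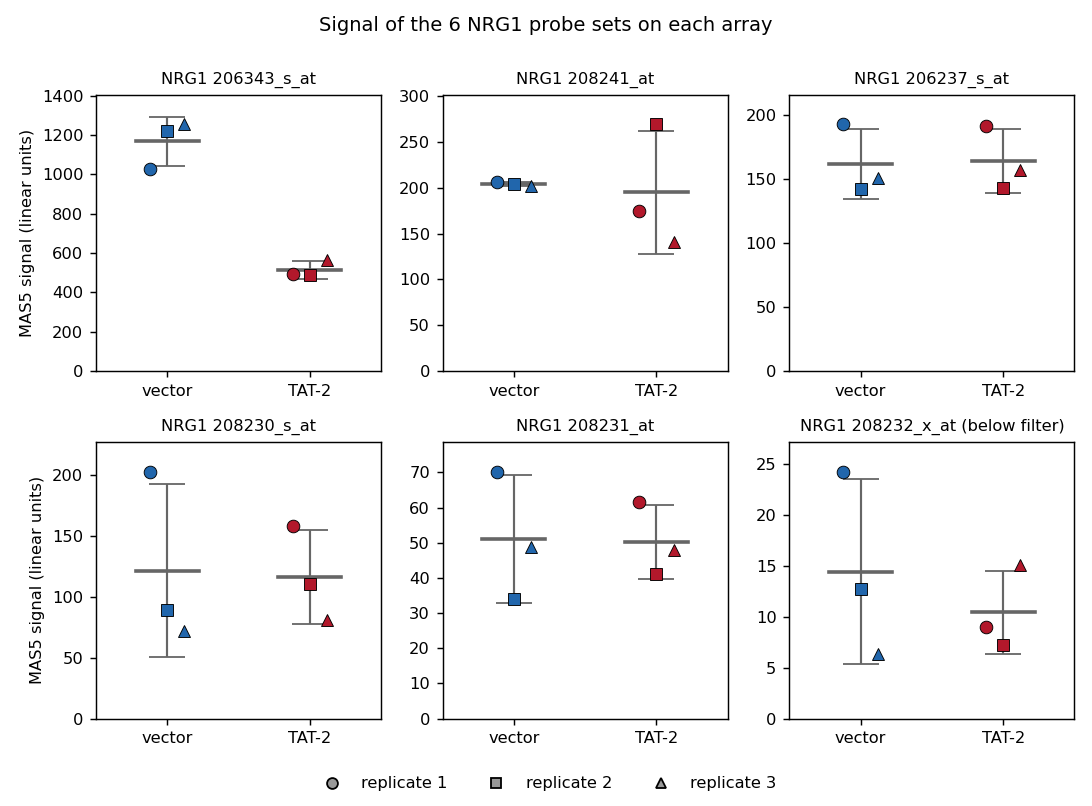
MAS5 signal (linear units, from 0) of each NRG1 probe set on each array, by group; points are arrays with the replicate number as the shape, horizontal bars are means and whiskers SDs of 3 arrays. Only in 206343_s_at do the groups part, at 487 to 565 for TAT-2 and 1027 to 1255 for vector.

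The NRG1 probe sets were also set against each other within each array, a comparison chosen after the values were seen. The log2 ratio of 206343_s_at to 206237_s_at, each taken as signal + 16, was 1.29, 1.66 and 1.75 on the TAT-2 arrays and 2.32, 2.97 and 2.93 on the vector arrays. The groups of this ratio did not overlap, and its difference was -1.18, with -1.03, -1.31 and -1.18 by replicate number. Against the 3 other tested NRG1 probe sets the difference of the ratio ran from -1.05 to -1.18, and its groups overlapped for 208230_s_at. With 206343_s_at in each ratio, these values repeat the difference that brought NRG1 into view, and no test is drawn from them.

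NRG1 has many transcripts, which differ in their first exons and in their ends. The platform annotation ties 206343_s_at to a RefSeq record by accession alone, and that record is known, as background, as the SMDF form, a neuregulin with a cysteine-rich membrane-anchored front end, and 208230_s_at and 208231_at share 1 other record. Of the 6 probe sets, 5 have a record still listed for NRG1 in RefSeq, and that of 208232_x_at is not listed. The stretch each probe set reads was not analysed here, so the lower signal is that of RNA read by 206343_s_at and is assigned to no transcript. A name ending in _s_at marks probes shared by several transcripts, and _x_at marks probes that can read other genes.

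The other 24 tested probe sets were the rest of NRG1 and those of EGFR, ERBB2, ERBB3, EREG, HBEGF and TGFA. Their log2 differences ran from -0.23 to 0.35, and none was called by limma in either fit. Over the 25, 13 were higher and 12 lower, with a median of 0.001 against -0.01 for all 27307 tested probe sets, and a median size of 0.11 against 0.13. Of the 25, 1 was called (206343_s_at), where 0.0293% of all tested probe sets were called, and the same 1 with the block, where 5.21% were. Nothing is read from that count, since the call chose the gene. At an unadjusted p under 0.05, 2 of the 25 lay in each fit, where 7.86% of all tested probe sets did, and 18.5% with the block. The groups did not overlap in 5 of the 25, against 14.1% of all tested probe sets.

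**Figure D2:**
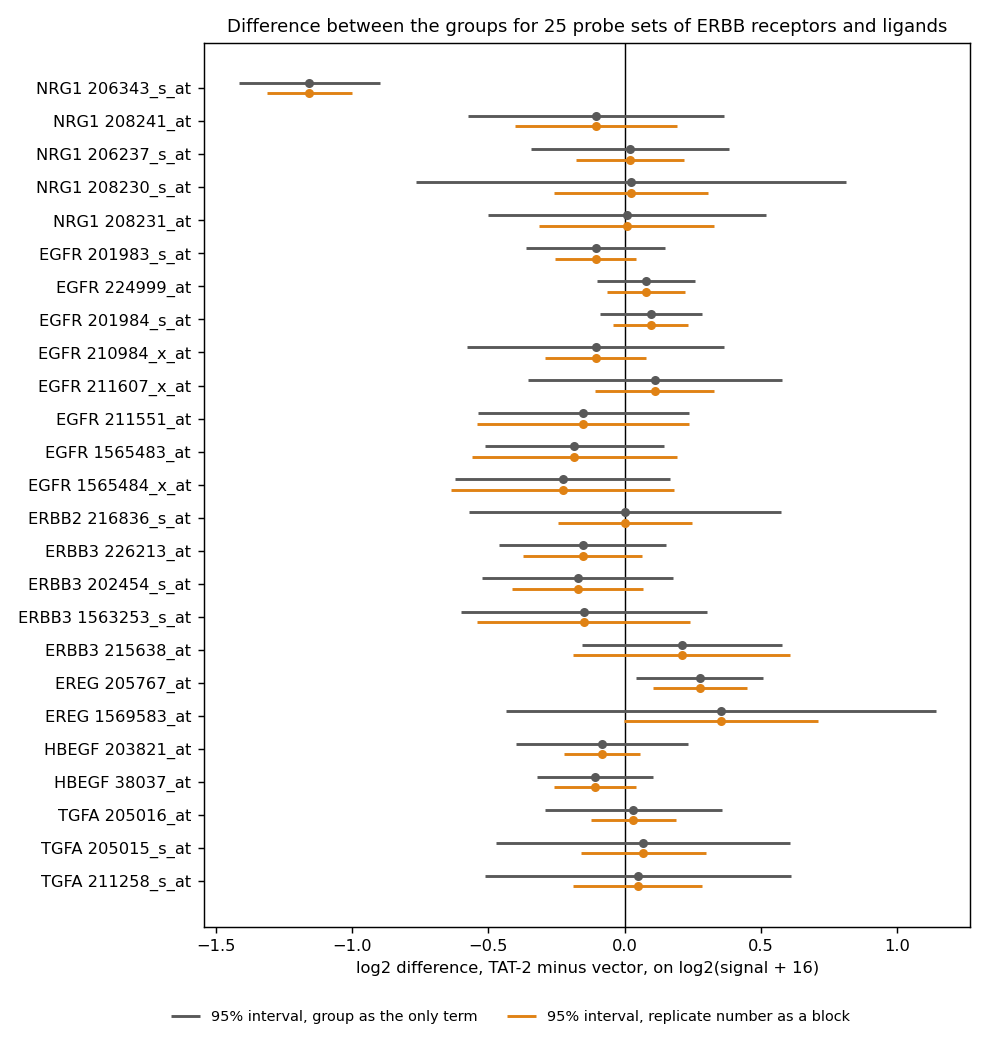
Log2 difference, TAT-2 minus vector, on log2(signal + 16), for each of 25 tested member probe sets; dots are differences of means of 3 arrays per group and lines are 95% intervals from limma, grey with group as the only term and orange with the replicate number as a block. NRG1 206343_s_at is at -1.16, and the other 24 lie between -0.23 and 0.35.

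EGFR, the receptor of most of these ligands, has 9 probe sets, of which 8 were tested, 3 higher and 5 lower. The brightest, 201983_s_at, gave 2693, 3543 and 3278 on the TAT-2 arrays and 3151, 3636 and 3410 on the vector arrays. The groups overlapped, and replicate 1 was the lowest array in each. The difference was -0.11 ± 0.11 (95% interval -0.36 to 0.15, or -0.25 to 0.04 with the block). The probe set 224999_at gave 2360, 2368 and 2359 against 2394, 2111 and 2218. Its TAT-2 arrays agreed closely with each other and lay within the vector range, at 0.08 (95% interval -0.10 to 0.26).

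The EGFR probe set 201984_s_at gave 1409, 1396 and 1374 against 1358, 1322 and 1234. Its groups did not overlap, yet the difference was only 0.09 (95% interval -0.09 to 0.28). At the dim end, 1565483_at gave 21.6, 22.2 and 23.4 against 26.9, 28.4 and 27.7, also without overlap, with the opposite sign (-0.18, 95% interval -0.51 to 0.14). The 4 other tested EGFR probe sets ran from -0.23 to 0.11, with overlapping groups. The untested 211550_at stayed between 3.40 and 8.16. The unadjusted intervals of the 3 brightest EGFR probe sets lay between -0.36 and 0.28 on the log2 scale.

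ERBB2, the receptor without a ligand, was read by 1 tested probe set. Its 216836_s_at gave 160, 102 and 77.0 on the TAT-2 arrays and 138, 108 and 85.2 on the vector arrays. The signal was highest on replicate 1 of both groups, and the group means were 113 ± 42.6 and 110.5 ± 26.6 (SD, n = 3 each). The difference was 0.00 (95% interval -0.57 to 0.57, or -0.25 to 0.25 with the block). The 2 other ERBB2 probe sets were dim, at 5.53 to 22.5 for 210930_s_at and 1.58 to 9.44 for 234354_x_at.

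ERBB3, the receptor that binds neuregulins, had 5 probe sets and 4 tested. The brightest, 226213_at, gave 165, 174 and 178 against 182, 228 and 174. The means were 172 ± 6.40 and 195 ± 29.4, with the vector replicate 2 array standing highest, and the difference was -0.15 ± 0.13 (95% interval -0.46 to 0.15). The probe set 202454_s_at gave 112, 110.4 and 94.4 against 145, 117 and 103. TAT-2 was lower in each replicate number but the groups overlapped (-0.17, 95% interval -0.52 to 0.18). The dimmer 1563253_s_at was at -0.15 and 215638_at at 0.21, so the 4 probe sets did not share a sign. The untested 1563252_at ran from 1.53 to 12.1.

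EREG, epiregulin, was higher in the mean on both of its probe sets. Its 205767_at gave 1241, 1280 and 1336 on the TAT-2 arrays and 1202, 975 and 1015 on the vector arrays. Every TAT-2 array was above every vector array, though replicate 1 labelled vector came close to replicate 1 labelled TAT-2. The means were 1286 ± 47.7 and 1064 ± 121 (SD, n = 3 each), and the difference was 0.27 ± 0.10 (95% interval 0.04 to 0.51, or 0.10 to 0.45 with the block). By replicate number it was 0.04, 0.39 and 0.39. The interval is not corrected for the number of probe sets tested, and limma over all of them did not call it in either fit. With the block and without both replicate 1 arrays it was called, at 0.39, in a fit that called 795 probe sets of the series. Without both arrays of replicate 2 or 3 it was not called (limma adjusted p = 0.362 and 0.165).

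The other EREG probe set, 1569583_at, gave 131, 250.1 and 144 against 68.1, 172 and 174. The groups overlapped, replicate 1 was the lowest array of both, and the order turned in replicate number 3, with 0.81, 0.50 and -0.25 by number. Its difference was 0.35 ± 0.34 (95% interval -0.43 to 1.14). In limma with the block it was not called on all arrays (adjusted p = 0.273), nor without both arrays of replicate 1 (0.793) or 2 (0.601). Without both arrays of replicate 3, the number where the order turned, it was called, at 0.65. That fit called 1393 probe sets of the series.

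HBEGF, a heparin-binding ligand that is also the diphtheria toxin receptor, was read by 2 bright probe sets. Its 203821_at gave 1126, 878 and 976 against 1247, 935 and 986. TAT-2 was lower in each replicate number by little, and the groups overlapped (-0.08, 95% interval -0.40 to 0.23, or -0.22 to 0.06 with the block). The probe set 38037_at gave 455, 473 and 469 against 501, 489 and 521. Here the groups did not overlap, at -0.11 ± 0.09 (95% interval -0.32 to 0.10). The 2 untested HBEGF probe sets were dim, at 2.52 to 16.6 for 244857_at and 0.972 to 1.76 for 222076_at.

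TGFA, an EGFR ligand that many keratinocytes make for themselves, was read by 3 tested probe sets. The brightest, 205016_at, gave 1198, 1029 and 1031 against 1318, 945 and 955. Replicate 1 was highest in both groups, and the difference was 0.03 ± 0.14 (95% interval -0.29 to 0.36, or -0.13 to 0.19 with the block). The probe sets 205015_s_at and 211258_s_at were at 0.07 and 0.05 with overlapping groups, and both were highest on replicate 1 as well. The betacellulin gene BTC lay below the filter on both of its probe sets, at 4.83 to 13.1 for 241412_at and 0.771 to 10.6 for 207326_at, so neither was tested. The groups overlapped in both. TAT-2 was higher in each replicate number for 241412_at (0.23), and 207326_at was at -0.02.

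**Figure D3:**
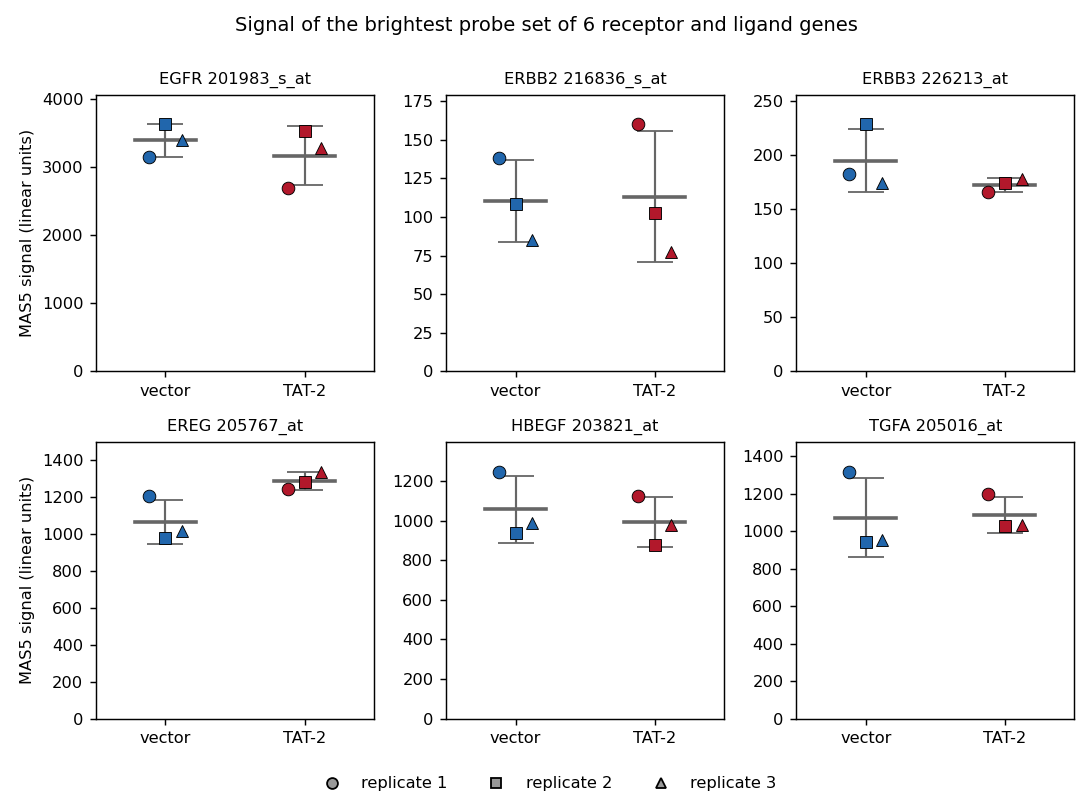
MAS5 signal (linear units, from 0) of the brightest probe set of EGFR, ERBB2, ERBB3, EREG, HBEGF and TGFA on each array, by group; points are arrays with the replicate number as the shape, horizontal bars are means and whiskers SDs of 3 arrays. The groups overlap in each panel but that of EREG, where TAT-2 lies at 1241 to 1336 and vector at 975 to 1202.

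Several members were highest or lowest on replicate 1 of both groups. The labels describe the replicate 1 arrays of both groups without the running number that the descriptions of replicates 2 and 3 carry. The difference of replicate 1 from replicates 2 and 3, with group as a further term in limma, was read for this reason after the data were seen. Of the 25 probe sets 10 were called, 8 higher and 2 lower on replicate 1, where 21.5% of all tested probe sets were called. NRG1 208230_s_at was the largest of the higher ones (0.92 ± 0.16, SE, limma adjusted p = 0.00222), and NRG1 206237_s_at was called too (0.34 ± 0.10, adjusted p = 0.0277).

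All 3 tested TGFA probe sets were higher on replicate 1 (0.34 to 0.61), as were ERBB2 216836_s_at (0.60 ± 0.14, limma adjusted p = 0.0119), EGFR 210984_x_at (0.53 ± 0.09, adjusted p = 0.00287) and HBEGF 203821_at (0.32 ± 0.07, adjusted p = 0.00818). The 2 lower ones were EREG 1569583_at (-0.83 ± 0.19, limma adjusted p = 0.0112) and the brightest EGFR probe set, 201983_s_at (-0.25 ± 0.07, adjusted p = 0.0251). NRG1 206343_s_at was not called for replicate 1 (-0.18 ± 0.08, limma adjusted p = 0.139). EGFR thus had a called probe set in each direction.

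**Figure D4:**
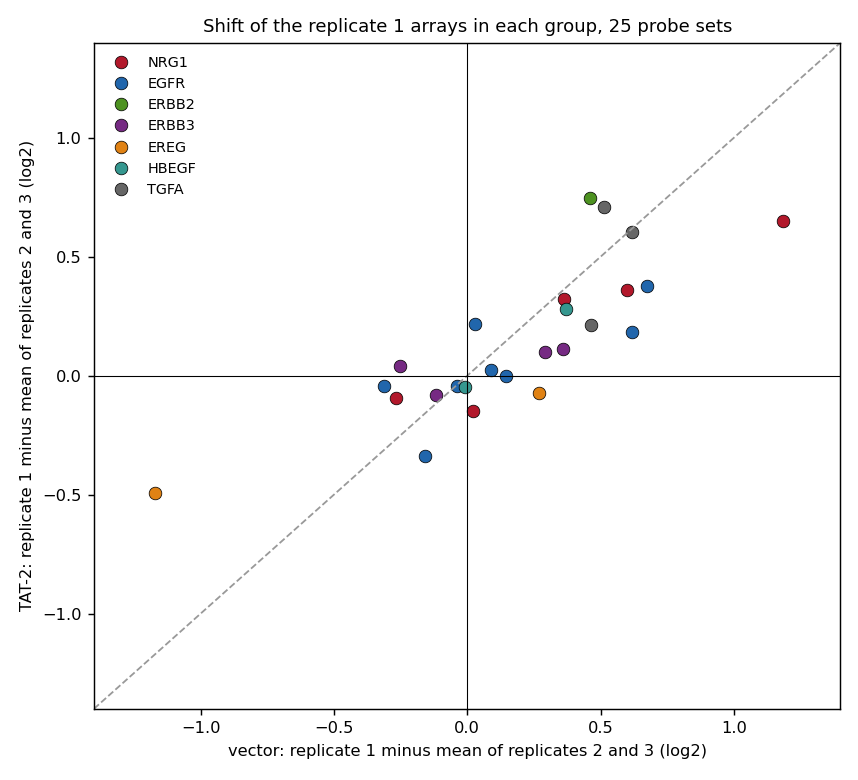
Log2 shift of replicate 1 from the mean of replicates 2 and 3 in the vector arrays (x axis) and in the TAT-2 arrays (y axis) for the 25 tested probe sets, coloured by gene, with the dashed line marking equal shifts. NRG1 208230_s_at (1.19 in vector, 0.65 in TAT-2) and EREG 1569583_at (-1.17 in vector, -0.49 in TAT-2) lie farthest out, each with the same sign in both groups.

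The wider ERBB pathway was read in 4 lists of 61 genes, of which 51 were tested, each by its probe set of highest mean and with p adjusted over 12151 genes. In limma with group alone 0 of the 51 were called, where 0.337% of all genes were, and 7 lay under an unadjusted p of 0.05, where 9.5% of all genes did. With the block 4 were called, 2 higher and 2 lower, which is 7.84% of the 51 where 8.86% of all genes were called. With the block and no intensity trend 0 of the 51 were called, so the 4 calls rest on that trend. The median difference of the 51 was 0.03 against -0.002 for all genes.

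The other receptor and ligands of the family, ERBB4, NRG2, NRG3, NRG4 and EGF, all lay below the filter. ERBB4, the remaining neuregulin receptor, gave at most 13.2 on any array over its 4 probe sets, and NRG3 and EGF at most 6.18 and 3.68. NRG2 reached 18.9 on 1 array and NRG4 reached 9.95.

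Of 18 inhibitors and turnover factors of the receptors, limma with the block called 1 higher and 2 lower. This is 16.7% of the 18, where 8.86% of all genes were called, and with group alone 0 of them were called. SOCS4, a suppressor of EGFR signalling, rose from 460.0 to 584 (0.33 ± 0.10, SE, limma adjusted p = 0.0188 with the block and 0.314 without). A further SOCS4 probe set ran the other way. PTPRK, a receptor tyrosine phosphatase that acts on EGFR, fell from 300.1 to 208 (-0.49 ± 0.16, adjusted p = 0.00277 and 0.338). PTPN12, a cytosolic tyrosine phosphatase, fell from 1238 to 1053 (-0.23 ± 0.14, adjusted p = 0.0456 and 0.699).

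Of 13 tested shedding and processing genes, limma called 0 in either fit, and 2 lay under an unadjusted p of 0.05 with group alone and 4 with the block, where 9.5% and 22.6% of all genes did. RHBDL2, a rhomboid protease, was at 0.56 ± 0.18 (33.7 against 17.6), and ADAM12, a metalloprotease that can shed HBEGF, at 0.42 ± 0.16, with both other tested ADAM12 probe sets of opposite sign. Of 20 tested adaptors and effectors 1 was called with the block, or 5.0%, where 8.86% of all genes were. It was SHC1, an adaptor that docks on activated receptors, which rose from 1762 to 2133 (0.28 ± 0.11, limma adjusted p = 0.0190 with the block and 0.493 without it). The others in that list were not called.

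The genes on 1 side of the EREG locus were higher on the TAT-2 arrays. All of the 10 nearest tested protein-coding neighbours that come before the EPGN to BTC cluster in gene order had higher means, from 0.13 to 1.26, while among the 10 after it 3 were higher and 7 lower. Over all 12151 tested genes, 6017 were higher. Of the 20 neighbours, limma called 2 without the block and 10 with it, 9 of these higher. Over all genes, 0.337% were called without the block and 8.86% with it. Counting the neighbours of NRG1 too, 13 were called with the block, but only 2 with the block and no intensity trend. Most of the block calls over both loci thus rest on that trend. The largest difference of the 20 was in RASSF6, of the Ras association domain family, which rose from 69.1 to 185 (1.26 ± 0.17, SE, adjusted p = 0.0301 and 8.67e-05 with the block). CXCL1, a neutrophil chemokine, rose from 1032 to 1816 (0.81 ± 0.11, adjusted p = 0.0301), and its relatives CXCL2 (1.08 ± 0.42) and CXCL3 (0.77 ± 0.57) were called with the block alone. MTHFD2L, the tested gene next to the cluster on that side and named after its values were seen, was at 0.54 ± 0.09, above EREG at 0.27. Of 5 other tested MTHFD2L probe sets 1 had the opposite sign. On the other side limma with the block called CXCL10 (0.72 ± 0.19) and SHROOM3 (-0.43 ± 0.14), also named after their values were seen.

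The stretch around NRG1 showed no such run. Of its 20 nearest tested neighbours 9 were higher and 11 lower, with a median of -0.01. In limma with group alone 0 of the 20 were called and 3 lay under an unadjusted p of 0.05, where 9.5% of all genes did. With the block 3 of the 20 were called, where 8.86% of all genes were, and with the block and no intensity trend 2 of the 40 neighbours of both loci were. RBPMS, an RNA-binding protein, fell from 203 to 128 (-0.60 ± 0.17, limma adjusted p = 0.00325 with the block and 0.276 without). GSR, glutathione reductase, fell from 195 to 142 (-0.41 ± 0.13, limma adjusted p = 0.0298 with the block and 0.35 without). LEPROTL1 rose, with overlapping groups (0.27 ± 0.12, limma adjusted p = 0.0434 with the block and 0.555 without). The immediate tested neighbours WRN and POFUT3 were at 0.04 and -0.01.

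**Figure D5:**
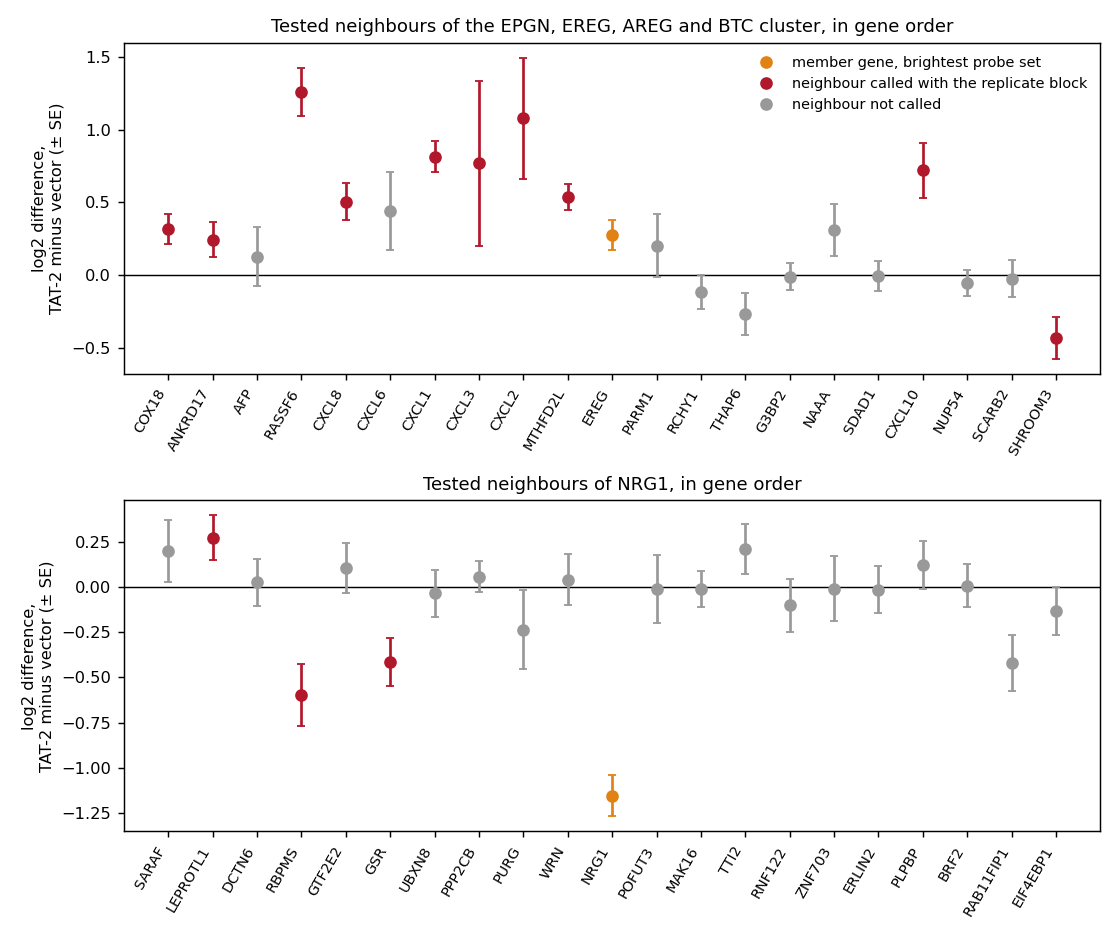
Log2 difference, TAT-2 minus vector (dots, with SE bars from the fit with group alone), of the 10 tested protein-coding neighbours on either side of the EPGN to BTC cluster (top) and of NRG1 (bottom), in gene order and not to scale of distance; red marks neighbours called with the replicate block, and orange the brightest probe set of the member. The 10 neighbours before the cluster are all above 0, and NRG1 at -1.16 lies below all of its neighbours.

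The genes whose levels followed NRG1 206343_s_at most closely over the 6 arrays were SLC4A11, COL5A1, BICD1, EMG1 and RAE1, with Pearson r from 0.991 to 0.996. Those that ran most against it were GUCD1, WBP1L and ZNF32, with r from -0.999 to -0.993. Over 6 arrays in 2 groups such values describe little more than an equal parting of the groups, and the groups of all 8 differed in the mean, from -0.80 for COL5A1 to 0.59 for ZNF32. Each gene was read by its probe set of highest mean. Of 5 other tested BICD1 probe sets 3 had a group difference of the opposite sign.

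The signal of the probe sets named for PRSS2, the introduced gene, did not follow the labels. Both end in _x_at, so their probes can read other genes, and whether they read the introduced RNA was not tested. The PRSS2 probe set 205402_x_at gave 20.4, 13.8 and 14.6 on the TAT-2 arrays and 19.6, 80.8 and 83.2 on the vector arrays (exact two-sided permutation p = 0.2). The PRSS2 probe set 216470_x_at gave 19.9, 17.9 and 19.5 against 22.6, 38.0 and 54.5, with every TAT-2 array below every vector array (exact two-sided permutation p = 0.1, the smallest 3 against 3 can give). Every direction here therefore rests on the labels. Of 13 squamous keratinocyte markers 9 had a named probe set, all above the filter, with summed signals of 25110 to 29930 on the TAT-2 arrays and 22030 to 31590 on the vector arrays. Of 11 fibroblast markers 4 were above the filter, with sums over the list of 280.1 to 287.7 against 270.1 to 333.7. Of these 4, FAP (95.7 against 74.1), COL1A1 (87.3 against 72.4) and DCN (28.2 against 22.8) had higher TAT-2 means and were not called, and the 7 below the filter reached at most 19.4. COL5A1 was the 1 fibroblast marker called with the block (-0.80 ± 0.14, limma adjusted p = 0.00311), as was CD14 (0.65) among the leukocyte markers, and their part in the NRG1 result was not tested. Leukocyte (2 of 5 above the filter), endothelial (1 of 5), melanocyte (2 of 4) and Schwann or neural markers (0 of 3) gave sums of 46.1 to 101.0, 43.1 to 62.2, 91.5 to 133 and 10.1 to 24.4 over the 6 arrays. A 28S ribosomal RNA control gave 530 to 683 on the replicate 1 arrays and 2030 to 2537 on the others, and the ACTB log2 ratio of 3′ to 5′ signal was 0.21 to 0.25 against 0.46 to 0.59. The part of these in the replicate 1 shifts was not tested.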

How the data were processed

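Affymetrix arrays of HSC-3 RNA were deposited as MAS5 signal intensities by the authors, per the submitters' processing notes, which name no version. The mean of the signals between the outer percentiles was 99.98 on every array, so the authors' scaling was kept. Groups and replicate numbers came from the sample titles. The annotation gave 41097 of 54675 probe sets 1 gene symbol, 1801 several and 11777 none, and 41043 were matched by gene identifier to RefSeq names (GRCh38.p14). Those with several symbols were assigned to no gene, so a named probe set is one with 1 symbol.

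Signals were taken as log2(signal + 16), and probe sets at or above the median of the mean log2 value (27307) were tested with limma 3.58.1 in R 4.3.3 (lmFit, eBayes with an intensity trend), adjusted by Benjamini-Hochberg over all of them. Genes (12151) were fitted likewise on their probe set of highest mean, which is a separate adjustment. The fits were also run on simulated data with independent errors. The simulated replicate offsets were far smaller than the replicate 1 shifts seen here, so that run does not vouch for the replicate block. Intervals are limma's, at 95%, unadjusted. All probe sets of the members are named, with up to 4 called genes of each list and locus, or the 2 of smallest p. Some further neighbours are named where the text says so. The members and lists were chosen with earlier results of these data known.

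Same-numbered arrays deviated together from their group means, with r = 0.64, 0.39 and 0.25 for numbers 1, 2 and 3, so the replicate block is given beside results it changes. Differently numbered arrays did so too among replicates 2 and 3 (r = 0.32 for TAT-2 replicate 2 with vector replicate 3, and 0.20 for the reverse), while those of replicate 1 with the others were below 0. The correlations thus set replicate 1 apart and separate numbers 2 and 3 little. With 3 arrays per group the number of arrays limits the precision. Sequences around NRG1 were not used here. Alternatives were other pseudocounts, filters and normalizations, no intensity trend, a batch term for replicate 1, and arrays left out.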

Additional observations from a re-analysis of the deposited data

How the results depend on the processing

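NRG1 206343_s_at kept its sign under all 20 alternatives run on it, from -1.25 to -1.09, and its call under 14 of them. The alternatives reuse the arrays on which NRG1 was chosen, so they describe the processing and are no further support. The count of called members, 1 in the fit given above, was 0 without the intensity trend, 0 with the replicate block and no intensity trend, and 2 with the replicate block without both arrays of replicate 1 or of replicate 3, where an EREG probe set was added. With single arrays left out it was 0 to 1. It was 0 without TAT-2 replicate 2 (adjusted p of 206343_s_at 0.184), TAT-2 replicate 3 (0.157), vector replicate 2 (0.13) or vector replicate 3 (0.274), and in these fits no probe set of the series was called. Of 474 values of the other 24 tested probe sets under the alternatives, 2 became called, both of EREG, and 3 moved by more than the spread between replicates, with pseudocounts of 1 or 64.

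Over all tested probe sets the count of 8 became 13 with quantile normalization, 24 with array medians centred, 5 without the intensity trend, 1424 with the replicate block, 0 with the replicate block and no intensity trend, 1232 with replicate 1 as a batch term, and 795, 659 and 1393 with the replicate block without both arrays of replicate 1, 2 and 3. With single arrays left out it was 0 to 29. Over genes the count of 41 became 6 with no filter, 22 without the trend, 1077 with the replicate block, 81 with the replicate block and no trend, 970 with replicate 1 as a batch term, and 674, 581 and 1282 without both arrays of replicate 1, 2 and 3, with 0 to 64 when single arrays were left out.

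Of the 51 other pathway genes 0 were called in limma with group alone (7 at an unadjusted p under 0.05), 4 with the replicate block, 0 with the replicate block and no intensity trend, 3 with replicate 1 as a batch term, and 2, 1 and 7 with the block without both arrays of replicate 1, 2 and 3. Of the 40 neighbours 2 were called, against 0 with no filter, 1 without the trend, 13 with the replicate block, 2 with the replicate block and no intensity trend, 11 with replicate 1 as a batch term, 8, 8 and 9 with the block without both arrays of replicate 1, 2 and 3, and 0 to 2 with single arrays left out. The causes were not tested. Dim signals limit BTC, ERBB4 and the lesser ERBB2 and HBEGF probe sets, which were not tested.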
